A study of Mus musculus with 15 samples.

Results

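A set of 10 genes of the transforming growth factor beta (TGF-beta) pathway was followed across 15 tumour libraries: the ligands TGFB1, TGFB2 and TGFB3, the activin subunit INHBA, the receptors TGFBR1 and TGFBR2, the signal carrier SMAD3, the inhibitors SMAD7 and SKIL, and the secreted target TGFBI. They were chosen by name, as 10 of the 25382 genes in the deposited count table, and all 10 passed the filter on low counts that left 15190 genes for testing. The lowest count of any of them in any library was 70 reads, for INHBA.

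The libraries came from primary tumours that MDA-MB-231 cells formed in mice (strain Nod/Skid, as labelled). MDA-MB-231 is a human triple-negative breast cancer line with a mesenchymal character, used here as a single line carrying GFP and luciferase. The cells were grown in DMEM with serum and fall into groups by adhesion under fluid shear: weakly adherent at 10 dyn per square centimetre (6 libraries), strongly adherent at 50 dyn per square centimetre (4 libraries), and unsorted with no shear (5 libraries). The tumours were dissociated and their bulk mRNA was sequenced. Whether separate animals gave the libraries is not in the labels, so the p-values cover the spread among these libraries alone, and neither age, injection site, pooling of animals nor any step that parts human from mouse cells is given. A library is called here by its group and its title's number (4, 5, 6, 7-8, 9 or 10), whose meaning is not stated. Numbers 4, 5, 6 and 9 have a library of each group, number 7-8 has a weakly adherent and an unsorted library, and number 10 has 1 weakly adherent library.

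TGF-beta is secreted in a latent form and has to be released before it binds a type II receptor, TGFBR2, which recruits and phosphorylates the type I receptor TGFBR1. The active receptor phosphorylates SMAD2 and SMAD3, which enter the nucleus with SMAD4 and switch target genes, among them genes for their own inhibitors such as SMAD7 and SKIL. In carcinoma cells the pathway is known for slowing proliferation in early lesions and for promoting migration, matrix production and epithelial-mesenchymal transition in advanced ones.

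Total counts per library ran from 30372619 to 45434799. Levels are given as TMM-scaled CPM, a gene's reads relative to all reads of its library after a correction for composition, and they compare libraries within a gene, not genes with each other. Vimentin and 5 other markers of MDA-MB-231 had summed levels of 11023 to 11377 CPM in the libraries of number 6 and 3964 to 8280 CPM in the other 12. Single markers varied more: ZEB1 stood at 73.1 to 122 CPM in number 6 and at 9.59 to 70.5 CPM in the other 12. Of 3 receptor genes that are low in triple-negative lines, ESR1 and PGR stayed below 1 CPM in every library, while ERBB2 did not. The 3 summed to 76.6 to 86.7 CPM in number 6 and 89.9 to 146 CPM in the other 12, nearly all of it ERBB2. The epithelial marker CDH1, which MDA-MB-231 cells are known to lack, was at 5.56 CPM in weakly adherent 6, 0.267 CPM in strongly adherent 6 and 0.407 CPM in unsorted 6, against 53.1 to 549 CPM in the other 12 libraries, which went against the label in this respect. Summed levels of 6 epithelial genes that are low or silent in MDA-MB-231, CDH1 among them, were 107 to 215 CPM in number 6. In the other 12 they were 414 to 1627 CPM. By these genes number 6 was nearer to the labelled line than the other 12, which serve as its reference below. The lung epithelial marker NKX2-1 was at 0.399 CPM or less in number 6 and at 6.18 to 58.1 CPM in the other 12. Summed levels of 6 lung epithelial genes were 0.509 to 1.87 CPM in number 6 and 16.4 to 300 CPM in the other 12. Summed levels of 12 striated muscle genes were 123 CPM in weakly adherent 6, 343 CPM in strongly adherent 6, 786 CPM in unsorted 6 and 2289 CPM in strongly adherent 5, against 4.49 to 10.8 CPM in the other 11 libraries. In bulk samples such as these, fewer cells of a type and less RNA per cell cannot be told apart.

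**Figure D1:**
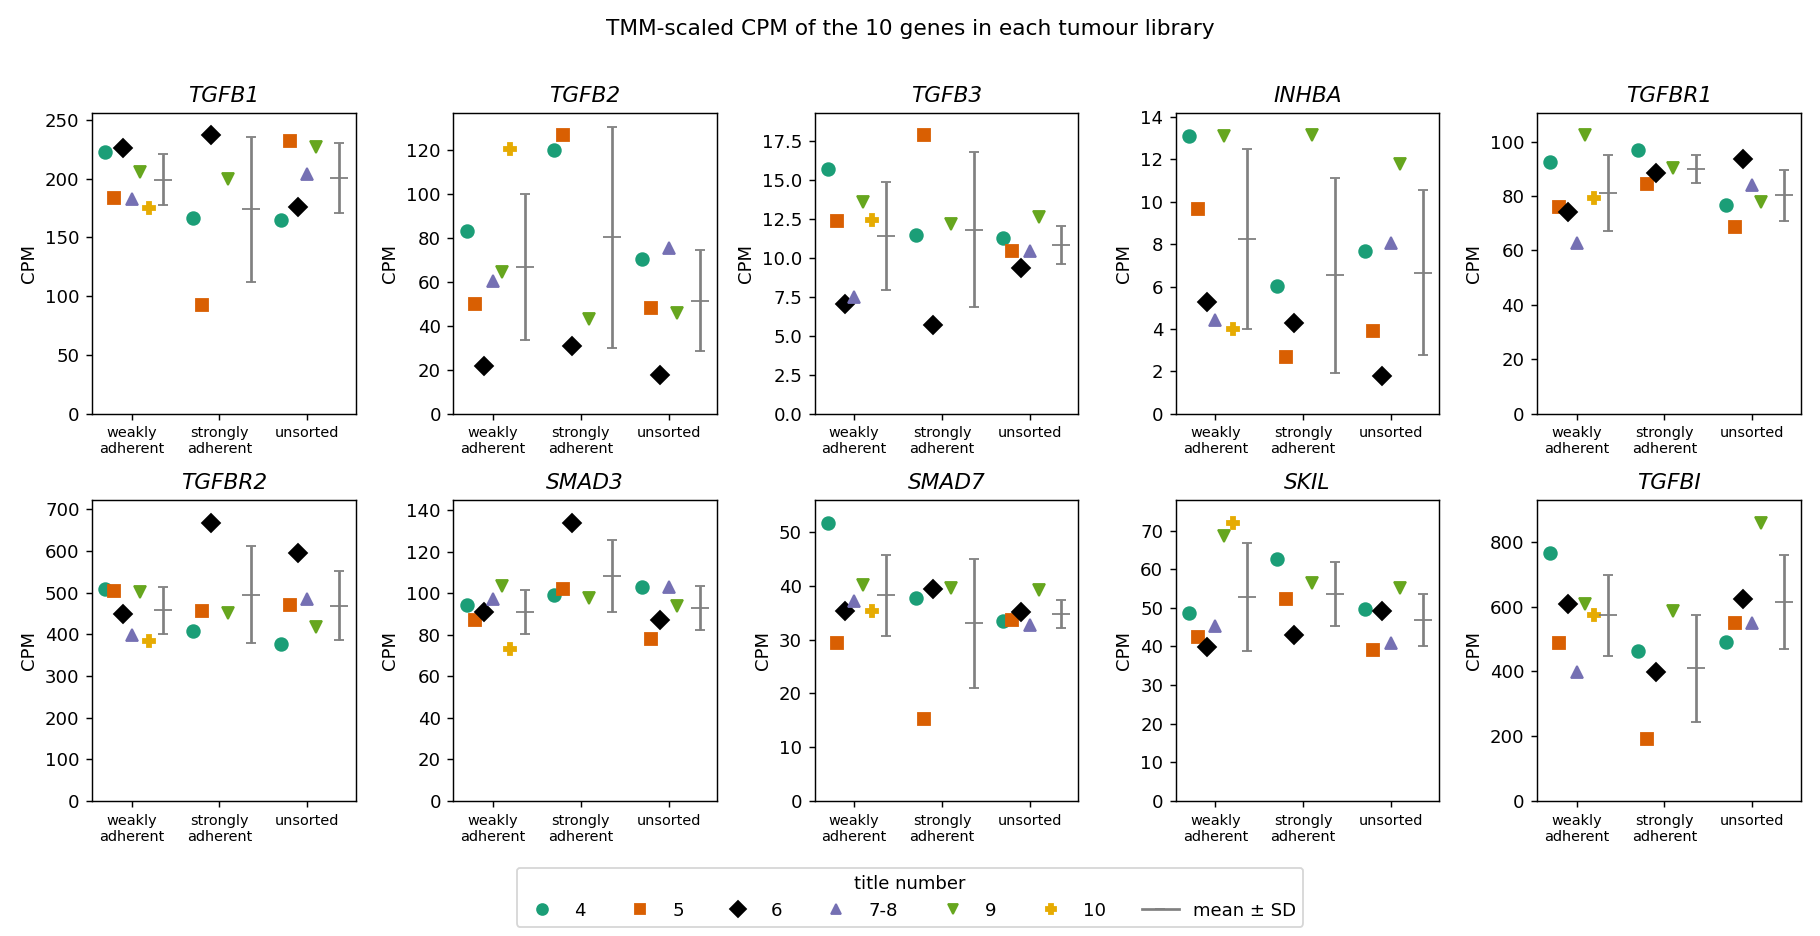
TMM-scaled CPM (y axis, linear, from 0) of each of the 10 genes in each library, by adhesion group (x axis), with colour and shape for the title number and grey bars for the group mean ± SD. TGFB2 in the 3 libraries of number 6 lies below every other library, and the adhesion groups overlap for every gene.

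The 10 genes differed in how much they varied. INHBA spanned 7.38-fold from the lowest to the highest of the 15 libraries and TGFB2 spanned 7.15-fold, and the SD of log2 CPM of these genes exceeded that of 89.0% and 88.2% of all tested genes. TGFBI spanned 4.52-fold, SMAD7 3.42-fold, TGFB3 3.13-fold and TGFB1 2.57-fold. The receptors and SMAD3 varied least: TGFBR1 spanned 1.63-fold, TGFBR2 1.78-fold and SMAD3 1.84-fold, next to 1.85-fold for SKIL. The order of spread therefore ran from 2 ligands at the top to the type I receptor at the bottom.

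The first comparison asked whether tumours of weakly and strongly adherent cells differ in these genes. None of the 10 passed the test between weakly adherent and strongly adherent tumours (edgeR's quasi-likelihood test, two-sided, adjusted p = 0.999983 for each). The background was 0% of 15190 genes called by edgeR, with 366 at an unadjusted p under 0.05, of which 0 were among the 10, and DESeq2 and limma-trend also called 0. The median log2 fold change of the 10 was -0.03, beside -0.02 for all genes, with 4 positive and 6 negative. In tests on simulated counts, this comparison recovered 63% of genes changed 2-fold and 84% of genes changed 4-fold. Smaller changes may therefore not be detectable with these libraries. The fits above had no term for the title number, so differences between numbers are part of their spread. With the number as a block, edgeR called 0 genes and DESeq2 called 30, none of them among the 10.

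TGFBI, an extracellular matrix protein that binds collagens and integrins and is named for its induction by TGF-beta, had the largest fold change of the 10 between these groups. It stood at 397, 590.2 and 767 CPM (lowest, median and highest) in weakly adherent tumours. In strongly adherent tumours it stood at 463 CPM in number 4, 190.4 in number 5, 398 in number 6 and 587 in number 9. The groups overlapped, and strongly adherent 5 was the lowest of all 15 libraries. Its mean was 574 ± 125 CPM (SD, n = 6) for weakly adherent tumours and 409.8 ± 166 CPM (SD, n = 4) for strongly adherent ones, and the log2 fold change was 0.49 ± 0.26 (SE, 95% confidence interval -0.06 to 1.03). Within the 4 numbers that have both groups, TGFBI was higher in the weakly adherent library in 4 of 4, by 0.05 to 1.36 on the log2 scale. The share of all genes with the same direction in all 4 was not counted. The numbers also did not meet the rule for pairing given below. Without strongly adherent 5 the log2 fold change was 0.25, and without that library and number 6 it was 0.12, against 0.49 with all libraries. Strongly adherent 5 is also the library with the highest summed levels of striated muscle genes, 2289 CPM, and of 6 epithelial genes, 1627 CPM, and with the lowest sum of the 6 markers of MDA-MB-231, 3964 CPM. Unsorted 6, the next highest in muscle genes at 786 CPM, had 624.8 CPM of TGFBI. The part of these markers in the TGFBI value was not tested beyond leaving the library out.

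TGFBI was also the only one of the 10 at an unadjusted p under 0.05 for strongly adherent against unsorted tumours. In unsorted tumours it stood at 489.8 CPM in number 4, 549 in number 5, 624.8 in number 6, 549 in number 7-8 and 860.1 in number 9. All strongly adherent libraries lay below the unsorted library of the same number, with log2 differences of -1.53 to -0.08, although the groups as wholes overlapped. These are the same strongly adherent libraries as in the comparison with weakly adherent tumours, and the share of all genes so placed was not counted. Strongly adherent against unsorted tumours gave a log2 fold change of -0.58 ± 0.27 (SE, 95% confidence interval -1.15 to -0.02), with an unadjusted p of 0.0430 and an adjusted p of 0.975 by edgeR's quasi-likelihood test. Without strongly adherent 5 it was -0.35. Weakly adherent against unsorted tumours gave -0.10 ± 0.24 (SE) for TGFBI, with the weakly adherent library higher in 1 of 5 numbers.

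SMAD3, the receptor-activated SMAD that carries the TGF-beta signal to the nucleus, came nearest to the unadjusted threshold between weakly and strongly adherent tumours. Its lowest, median and highest levels in weakly adherent tumours were 72.9, 92.6 and 103 CPM. Strongly adherent tumours had 99.1 CPM in number 4, 102 in number 5, 134 in number 6 and 97.4 in number 9. The strongly adherent libraries lay near the upper end of the weakly adherent ones, with number 6 above them all, and the groups overlapped. This gave a log2 fold change of -0.25 ± 0.12 (SE, 95% confidence interval -0.51 to 0.01), with an unadjusted p of 0.0563 and an adjusted p of 0.999983 by edgeR's quasi-likelihood test, and SMAD3 was lower in the weakly adherent library in 3 of 4 numbers. Without strongly adherent 6 the log2 fold change of SMAD3 was -0.13.

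Among the ligands, TGFB1, the form most studied in carcinoma, stayed in a narrow range apart from 1 library. It had 175, 195 and 226 CPM (lowest, median and highest) in weakly adherent tumours. Strongly adherent tumours had 167 CPM in number 4, 92.2 in number 5, 237 in number 6 and 199.7 in number 9. Strongly adherent 5 was again the lowest of the 15 libraries, and the groups overlapped. Weakly against strongly adherent tumours gave 0.20 ± 0.19 (SE, log2) for TGFB1, and -0.01 without strongly adherent 5.

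TGFB2, a ligand that needs the co-receptor betaglycan to bind its receptor well, was spread widely in every adhesion group. It had 21.8, 62.7 and 120.4 CPM (lowest, median and highest) in weakly adherent tumours. In strongly adherent tumours it had 120.3 CPM in number 4, 127 in number 5, 31.0 in number 6 and 43.2 in number 9. In unsorted tumours it had 70.7 CPM in number 4, 48.0 in number 5, 17.7 in number 6, 75.5 in number 7-8 and 45.8 in number 9. In each group the library of number 6 was the lowest. The log2 fold changes of TGFB2 had wide intervals: -0.27 for weakly against strongly adherent (95% confidence interval -1.35 to 0.82), 0.37 for weakly adherent against unsorted (-0.66 to 1.41) and 0.64 for strongly adherent against unsorted (-0.49 to 1.77). Single libraries moved each of them. Without strongly adherent 5, weakly against strongly adherent tumours gave 0.04 and strongly adherent against unsorted tumours gave 0.33 for TGFB2, and without strongly adherent 6 the first of these was -0.53. Weakly adherent against unsorted tumours gave 0.12 for TGFB2 without weakly adherent 10.

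INHBA encodes the beta A subunit of activin A, a related ligand that signals through SMAD2 and SMAD3 by its own receptors. It was low in CPM in every library, with 3.99, 7.45 and 13.1 CPM (lowest, median and highest) in weakly adherent tumours. Strongly adherent tumours had 6.01 CPM in number 4, 2.69 in number 5, 4.28 in number 6 and 13.1 in number 9. Unsorted tumours had 7.67 CPM in number 4, 3.92 in number 5, 1.78 in number 6, 8.08 in number 7-8 and 11.8 in number 9. The adhesion groups covered nearly the same range, and number 9 was high in all 3 of them. For INHBA the log2 fold change was 0.34 ± 0.54 (SE) for weakly against strongly adherent tumours, and 0.93 without strongly adherent 9. Strongly adherent against unsorted tumours gave -0.03 ± 0.56 (SE) for INHBA, and -0.62 without strongly adherent 9.

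TGFB3, a ligand with roles in palate and wound repair, and the receptors did not pass the test between adhesion groups. TGFB3 averaged 11.4 ± 3.46 CPM in weakly adherent, 11.8 ± 4.98 CPM in strongly adherent and 10.8 ± 1.20 CPM in unsorted tumours (SD, n = 6, 4 and 5). TGFBR1, the type I receptor kinase, averaged 81.2 ± 14.1 CPM in weakly adherent, 90.0 ± 5.26 CPM in strongly adherent and 80.3 ± 9.31 CPM in unsorted tumours. TGFBR2, the type II receptor that binds the ligand first, averaged 458 ± 56.1 CPM in weakly adherent, 495 ± 117 CPM in strongly adherent and 469 ± 82.6 CPM in unsorted tumours. The groups overlapped for each of these genes, and the log2 fold changes of the receptors lay between -0.15 and 0.17 over the 3 comparisons. Their intervals were among the narrowest of the 10: weakly against strongly adherent gave -0.41 to 0.12 for TGFBR1 and -0.44 to 0.21 for TGFBR2 (95% confidence intervals).

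The inhibitors did not pass the test either, and single libraries stood apart in them. SMAD7, which occupies the type I receptor and brings ubiquitin ligases to it, averaged 38.2 ± 7.51 CPM in weakly adherent, 33.0 ± 11.9 CPM in strongly adherent and 34.8 ± 2.62 CPM in unsorted tumours (SD). Strongly adherent 5 had 15.2 CPM of SMAD7, against 37.8 CPM in number 4, 39.5 in number 6 and 39.7 in number 9 of the same group. The lowest, median and highest SMAD7 levels in weakly adherent tumours were 29.5, 36.3 and 51.8 CPM, all above strongly adherent 5. That library also had the highest sum of striated muscle genes. Unsorted 6, the next highest in muscle genes at 786 CPM, had 35.2 CPM of SMAD7, and the part of these genes was not tested. SKIL, a nuclear repressor of SMAD complexes, averaged 52.8 ± 13.9 CPM in weakly adherent, 53.6 ± 8.31 CPM in strongly adherent and 46.7 ± 6.73 CPM in unsorted tumours (SD). Weakly against strongly adherent tumours gave 0.21 ± 0.22 (SE, log2) for SMAD7 and -0.03 without strongly adherent 5, and for SKIL it was -0.02 ± 0.17 (SE).

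**Figure D2:**
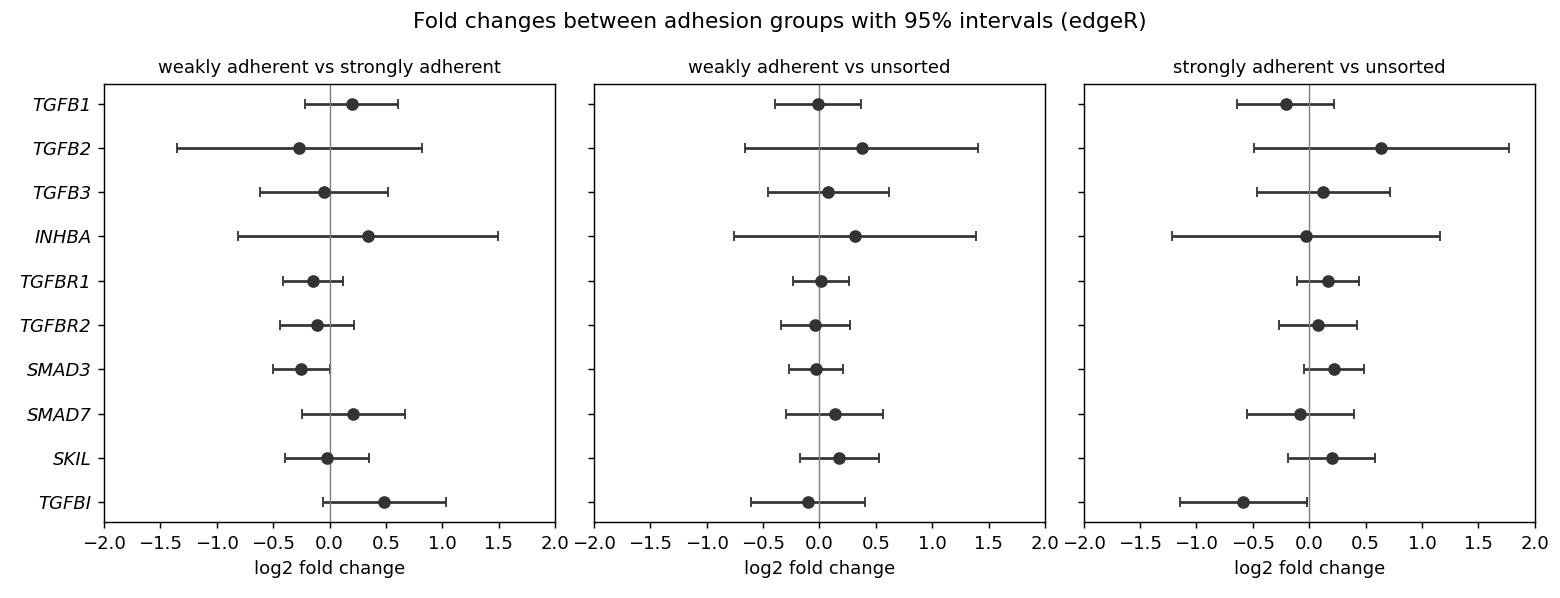
Log2 fold changes (x axis) of the 10 genes (y axis) in the 3 comparisons between adhesion groups, with points for the edgeR estimate and bars for the 95% confidence interval. Every interval includes 0 but that of TGFBI for strongly adherent against unsorted tumours (-1.15 to -0.02), which did not pass after adjustment (adjusted p = 0.975).

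Neither of the comparisons with unsorted tumours called any of the 10 genes. Weakly adherent against unsorted tumours had a background of 0% called by edgeR's quasi-likelihood test, with 81 of 15190 genes at an unadjusted p under 0.05, none of them among the 10, and the 10 had a median log2 fold change of 0.05 beside -0.00 for all genes. Strongly adherent against unsorted tumours likewise had a background of 0% called, with 572 genes at an unadjusted p under 0.05, of which 1 (TGFBI) was among the 10, and the 10 had a median of 0.10 beside 0.02 for all genes. DESeq2 and limma-trend called 0 genes in both. These fits had no term for the title number. With the number as a block, edgeR called 0 in both. DESeq2 then called 23 for strongly adherent against unsorted tumours, none among the 10, and 0 for weakly adherent against unsorted tumours. The 3 comparisons share libraries, so their values are not independent of each other.

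The wider pathway did not pass the test between adhesion groups either. The 6 lists of other pathway genes hold 78 genes, of which 73 were tested. Without a term for the title number, edgeR's quasi-likelihood test called 0 of them up or down in each of the 3 comparisons, as did DESeq2. The genes that DESeq2 called with the number as a block were not checked against these lists. By edgeR, 3 of the 73 had an unadjusted p under 0.05 between weakly and strongly adherent tumours and 0 in each comparison with unsorted tumours. The median log2 fold change of the 73 was -0.04 for weakly against strongly adherent, 0.01 for weakly adherent against unsorted and 0.04 for strongly adherent against unsorted tumours. Fibronectin (FN1), a matrix target, averaged 3642 ± 866 CPM in weakly adherent and 4810.1 ± 1557 CPM in strongly adherent tumours (SD), with a log2 fold change of -0.40 ± 0.23 (SE). The inhibitor PMEPA1, itself induced by TGF-beta, gave 0.17 ± 0.25 (SE) for weakly against strongly adherent tumours, and the antagonist FSTL3 gave 0.00 ± 0.24 (SE).

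Further abundant members of the lists are given as values. THBS1 (thrombospondin-1, which releases latent TGF-beta) gave a log2 fold change of -0.11 ± 0.29 (SE) and LTBP1 (which anchors the latent complex in the matrix) gave -0.15 ± 0.63 (SE) for weakly against strongly adherent tumours. The receptors BMPR2 and BMPR1A gave -0.02 ± 0.14 and -0.04 ± 0.13 (SE). SMAD2 gave 0.14 ± 0.22 and SMAD5 gave -0.10 ± 0.13 (SE), the antagonist FST gave 0.01 ± 0.16 (SE), and SMURF2, a ubiquitin ligase that acts on the receptor with SMAD7, gave 0.12 ± 0.15 (SE).

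More genes were called between title numbers than between adhesion groups. In a fit with both terms, each number was set against the mean of the other numbers, so that every library also serves in the reference of the other comparisons. Number 6 stood apart with 4242 of 15190 genes called, a background of 27.9%, of which 1757 rose and 2485 fell. Without strongly adherent 6 the count was 1981, and it was 3282 to 4231 without any other single library. Number 7-8 had a background of 0.0658% (10 genes) and number 9 of 0.0197% (3 genes). Numbers 4, 5 and 10 each had a background of 0% by edgeR's quasi-likelihood test, with 836, 1376 and 2175 genes at an unadjusted p under 0.05. For these DESeq2 called 26, 92 and 312 genes and limma-trend 0 each.

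In number 6, 2 of the 10 genes were called, both ligands and both lower, next to the background of 27.9% of all genes. TGFB2 fell to 21.8 CPM in weakly adherent 6, 31.0 in strongly adherent 6 and 17.7 in unsorted 6, against 43.2, 67.7 and 126.8 CPM (lowest, median and highest) in the other 12 libraries. All 3 libraries of number 6 lay below all 12 others, and the share of all genes so apart was not counted. This was a log2 fold change of -1.82 ± 0.25 (SE, 95% confidence interval -2.37 to -1.26) for TGFB2, a fold of 0.284, with an adjusted p of 0.000678 by edgeR's quasi-likelihood test. It was called under each of the other settings tried, at -1.92 to -1.64.

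TGFB3 fell less and with overlap. It stood at 7.03 CPM in weakly adherent 6, 5.72 in strongly adherent 6 and 9.39 in unsorted 6, against 7.47, 12.3 and 17.9 CPM (lowest, median and highest) in the other 12. The lowest of the other libraries, weakly adherent 7-8, lay among those of number 6. For TGFB3 the log2 fold change was -0.70 ± 0.21 (SE), a fold of 0.615, with an adjusted p of 0.0294 by edgeR's quasi-likelihood test. Its call was lost without strongly adherent 6 (-0.52, adjusted p = 0.167), without weakly adherent 6 (-0.66, adjusted p = 0.0949) and without unsorted 7-8 (-0.62, adjusted p = 0.0656).

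The other ligands in number 6 did not pass. TGFB1 gave 0.26 ± 0.20 (SE), with 226 CPM in weakly adherent 6, 237 in strongly adherent 6 and 176 in unsorted 6 inside the range of 92.2 to 232 CPM in the other 12 but for strongly adherent 6, the highest of all. The number of TGFB2 reads per TGFB1 read was 0.0964 in weakly adherent 6, 0.131 in strongly adherent 6 and 0.101 in unsorted 6. In the other 12 libraries this ratio ran from 0.202 in unsorted 9 to 1.38 in strongly adherent 5, so number 6 did not overlap with them. The ratio holds TGFB2, whose own levels were already apart, so it is not a separate result. The share of other gene pairs so apart was not counted. INHBA gave -0.79 ± 0.38 (SE) with an adjusted p of 0.140 by edgeR's quasi-likelihood test, and -0.38 without unsorted 6, the lowest of the 15 libraries for INHBA.

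None of the receptors and intracellular members in number 6 passed by edgeR's quasi-likelihood test with all libraries, though single libraries stood above the other 12. TGFBR2 had 449 CPM in weakly adherent 6, 668 in strongly adherent 6 and 594 in unsorted 6, and strongly adherent 6 and unsorted 6 were the highest of the 15 libraries. Its log2 fold change was 0.38 ± 0.14 (SE) with an adjusted p of 0.0578 by edgeR's quasi-likelihood test. TGFBR2 crossed the threshold with DESeq2 (adjusted p = 0.0227), with DESeq2 size factors in edgeR (0.0458), with no adhesion term (0.0364), without weakly adherent 4 (0.0446) and without weakly adherent 6 (0.60, adjusted p = 0.00952). SKIL gave -0.29 ± 0.13 (SE, adjusted p = 0.0965 by edgeR) and was called without unsorted 6 (-0.43, adjusted p = 0.0340). TGFBR1 (0.05), SMAD3 (0.15), SMAD7 (0.13) and TGFBI (0.10) had log2 fold changes within 0.15 of 0 and adjusted p-values of 0.366 to 0.776. SMAD3 was nevertheless highest of the 15 libraries in strongly adherent 6 (134 CPM), and without it the log2 fold change was -0.01.

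**Figure D3:**
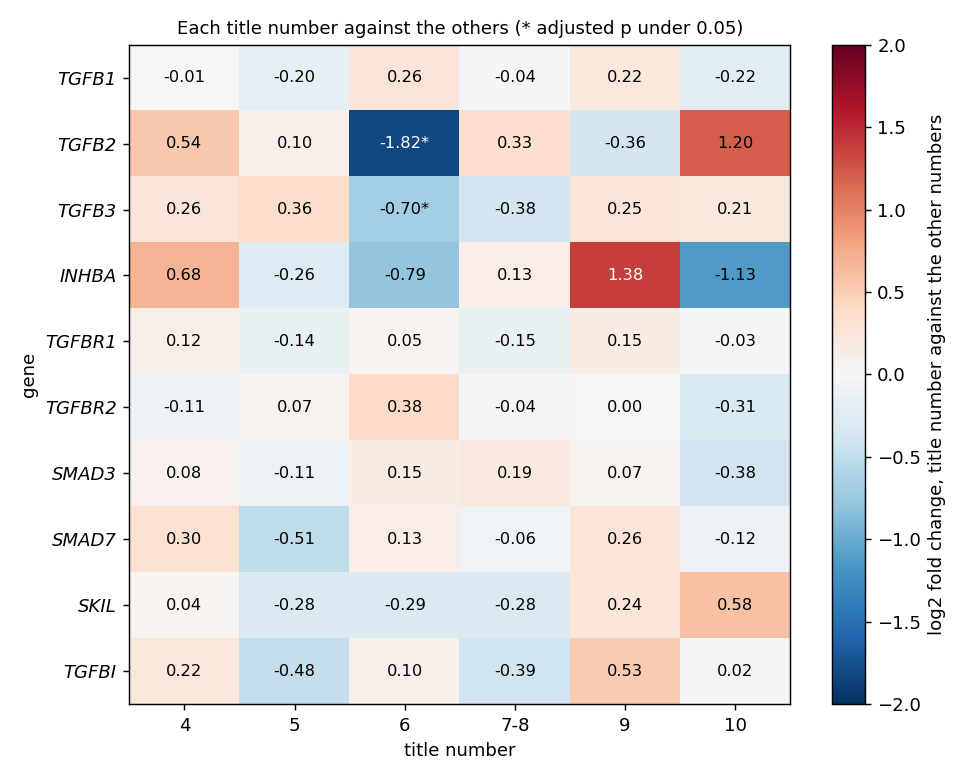
Log2 fold change of each of the 10 genes (rows) for each title number against the other numbers (columns), by edgeR with the adhesion group in the fit, with blue for lower, red for higher and a star for an adjusted p under 0.05. The starred values are TGFB2 (-1.82) and TGFB3 (-0.70), both in number 6.

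In the other numbers none of the 10 was called by edgeR's quasi-likelihood test, and single genes stood out as values. INHBA in number 9 had 13.1 CPM in the weakly adherent, 13.1 in the strongly adherent and 11.8 in the unsorted library, against 1.78, 4.85 and 13.1 CPM (lowest, median and highest) in the other 12. Weakly adherent 4 was the only library outside number 9 at that level. INHBA had there a log2 fold change of 1.38 ± 0.34 (SE), a fold of 2.61, with an adjusted p of 0.322 by edgeR and 0.0136 by DESeq2. TGFBI in number 9 gave 0.53 ± 0.20 (SE, adjusted p = 0.438 by edgeR), with the highest level of the 15 libraries in unsorted 9. At an unadjusted p under 0.05, number 9 had 2 of the 10 genes, INHBA and TGFBI.

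Number 10, a single weakly adherent library, had 120.4 CPM of TGFB2, the second highest of the 15 libraries after strongly adherent 5. The log2 fold change was 1.20 ± 0.34 (SE), with an adjusted p of 0.215 by edgeR and 0.0481 by DESeq2, where the lone library is assumed to vary like the others. It also had the most SKIL (72.1 CPM, 0.58 ± 0.19, SE) and the least SMAD3 (72.9 CPM, -0.38 ± 0.19, SE) of the 15 libraries. Number 5 had lower values of SMAD7 (-0.51 ± 0.19, SE), TGFBI (-0.48 ± 0.21, SE) and SKIL (-0.28 ± 0.13, SE), which had adjusted p-values of 0.493 to 0.539 by edgeR. Without strongly adherent 5, TGFBI in number 5 was at -0.22 and SMAD7 at -0.23, and SKIL in number 5 was at -0.18 without weakly adherent 10. TGFB2 in number 4 gave 0.54 ± 0.22 (SE, adjusted p = 0.891 by edgeR) and 0.81 without weakly adherent 10, and number 7-8 had none of the 10 at an unadjusted p under 0.05.

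Other genes of the pathway were called in number 6 in both directions. Of 73 tested, 11 rose and 25 fell, beside the background of 27.9% of all genes, with a median log2 fold change of -0.06 beside 0.01 for all genes. Without strongly adherent 6, 3 rose and 15 fell. The count that rose was 6 or 7 without each of strongly adherent 4, unsorted 4, unsorted 5, unsorted 7-8, unsorted 9 and weakly adherent 10. Libraries of number 6 differ from the rest in the epithelial, lung and muscle markers above, and the part of this in the pathway values was not tested. Where a gene below is said to be apart from the other libraries, the share of all genes so apart was not counted.

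Of 9 tested genes that hold or release latent TGF-beta, 2 rose and 5 fell in number 6, beside the background of 27.9% of all genes called. ITGB6, the integrin subunit of epithelial cells that frees TGF-beta1 and TGF-beta3, fell to 4.36 CPM in weakly adherent 6, 1.79 in strongly adherent 6 and 1.76 in unsorted 6, against 13.4 to 53.5 CPM in the others (log2 fold change -3.47 ± 0.54, SE, adjusted p = 0.00229 by edgeR). LTBP1 rose to 640.3 CPM in weakly adherent 6, 822 in strongly adherent 6 and 956 in unsorted 6, against 95.6 to 428 CPM in the others (1.92 ± 0.37, SE, adjusted p = 0.00590 by edgeR). Both sets of values were apart from the other libraries, in opposite directions. THBS1 fell by 0.93 on the log2 scale (SE 0.18, adjusted p = 0.00321 by edgeR), and ITGB8, another integrin subunit that frees the ligand, fell by 1.23 (SE 0.30, adjusted p = 0.0132), a call lost without strongly adherent 6 (adjusted p = 0.0506).

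Of 6 other activins, inhibins and antagonists, 0 rose and 4 fell by edgeR's quasi-likelihood test, beside the background of 27.9% of all genes called. GDF15, a stress-induced member of the superfamily, had 3.16 CPM in weakly adherent 6, 1.77 in strongly adherent 6 and 0.789 in unsorted 6, against 3.96 to 62.5 CPM in the others (-3.35 ± 0.47, SE, adjusted p = 0.00110). INHBB, the beta B activin subunit, had 2.92 CPM in weakly adherent 6, 2.19 in strongly adherent 6 and 0.331 in unsorted 6, against 6.27 to 44.5 CPM in the others (-3.30 ± 0.70, SE, adjusted p = 0.00966), a call lost without strongly adherent 6 (adjusted p = 0.0570). The activin antagonists FST (-0.46 ± 0.12, SE) and FSTL3 (-0.63 ± 0.20, SE) also fell, though FST lost its call without strongly or unsorted 6. FSTL3 lost it without each of 7 libraries (weakly adherent 4, 6 and 9 and unsorted 4, 6, 7-8 and 9) and was at -0.27 without unsorted 6.

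Of 11 other receptors 1 rose and 2 fell in number 6, beside the background of 27.9% of all genes called: TGFBR3, which encodes betaglycan, rose by 0.51 ± 0.14 (SE, log2), while ACVR1B, an activin type I receptor, fell by 0.52 (SE 0.15) and BMPR1B, a bone morphogenetic protein receptor, fell by 1.45 (SE 0.47). TGFBR3 stood at 9.98 CPM in weakly adherent 6, 9.71 in strongly adherent 6 and 7.89 in unsorted 6, against 4.39 to 7.75 CPM in the others, and so apart from them. Of 7 other SMADs and anchors 0 rose and 1 fell, SMAD6, an inhibitory SMAD of the bone morphogenetic protein branch (-0.56 ± 0.16, SE, adjusted p = 0.0207 by edgeR). The calls of all 4 were lost without strongly adherent 6, those of TGFBR3, ACVR1B and SMAD6 also without weakly adherent 6, that of ACVR1B without unsorted 6 and that of SMAD6 without weakly adherent 10. BMPR1B lost its call without each of 9 libraries, namely all of number 4, strongly adherent 6, unsorted 6, unsorted 7-8, unsorted 9, weakly adherent 9 and weakly adherent 10.

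Of 12 other inhibitors, 0 rose and 3 fell by edgeR's quasi-likelihood test, beside the background of 27.9% of all genes called. PMEPA1, which sequesters receptor-activated SMADs, fell to 498 CPM in weakly adherent 6, 363 in strongly adherent 6 and 494 in unsorted 6, against 628 to 1062 CPM in the others (-0.89 ± 0.13, SE, adjusted p = 0.000745). SMURF1, a ubiquitin ligase that degrades SMADs and receptors, fell by 0.44 on the log2 scale (SE 0.10, adjusted p = 0.00616). Both were apart from the other 12 libraries. LDLRAD4, a relative of PMEPA1, was called at -1.64 ± 0.44 (SE) from a mean of 0.754 CPM, and its call was lost without strongly or weakly adherent 6.

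The target genes were called in both directions, and no direction of response to TGF-beta was assigned to them here. Of 29 tested, 9 rose and 10 fell in number 6, beside the background of 27.9% of all genes called. Their median log2 fold change was -0.06. ID3, a helix-loop-helix inhibitor of differentiation, fell by 2.47 (SE 0.30, adjusted p = 0.000241 by edgeR), and PTHLH, the parathyroid hormone-related protein of bone metastasis, fell by 2.11 (SE 0.34, adjusted p = 0.00130). TAGLN, an actin-binding protein of contractile cells, fell by 2.06 (SE 0.28), and the matrix protease MMP2 fell by 1.76 (SE 0.28). These 4 were picked for their fold change in this same comparison. Each was lower in every library of number 6 than in the other 12, narrowly so for TAGLN (16.1 CPM at most against 16.4 CPM at least).

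The targets that rose and further ones that fell were picked after their values had been seen. CTGF, a matricellular growth factor, stood at 1069 to 1426 CPM in number 6 against 117 to 989 CPM in the others (1.68 ± 0.34, SE, adjusted p = 0.00592 by edgeR). CYR61, its relative, stood at 716 to 909 CPM against 252 to 671 CPM (1.10 ± 0.15, SE, adjusted p = 0.000513). COL1A1, the main collagen I chain and also a fibroblast marker, fell by 1.66 (SE 0.31) and the cytokine IL11 fell by 1.01 (SE 0.18).

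TGFB2 and the epithelial markers were both lowest in number 6, while in the other 12 libraries their orders matched in part. The summed level of 6 epithelial genes was 215 CPM in weakly adherent 6, 114 in strongly adherent 6 and 107 in unsorted 6, the libraries lowest in TGFB2, against 414 to 1627 CPM in the other 12. Strongly adherent 5 and strongly adherent 4, with 127 and 120.3 CPM of TGFB2, had the highest epithelial sums, 1627 and 1179 CPM. Strongly adherent 9 and unsorted 9, the lowest in TGFB2 outside number 6, had 43.2 and 45.8 CPM of it beside the lowest epithelial sums of those 12, 501 and 414 CPM. Other libraries departed from this order. Weakly adherent 10, with 120.4 CPM of TGFB2, had an epithelial sum of 732 CPM, while unsorted 5, with 48.0 CPM of TGFB2, had a sum of 703 CPM. This is a description over 15 libraries that share title numbers, and the part of the epithelial RNA in the TGFB2 levels was not tested. The 8 fibroblast genes summed to 221 to 412 CPM in number 6 and 441 to 1358 CPM in the others, with their defining member DCN at 0.187 CPM or less in every library.

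**Figure D4:**
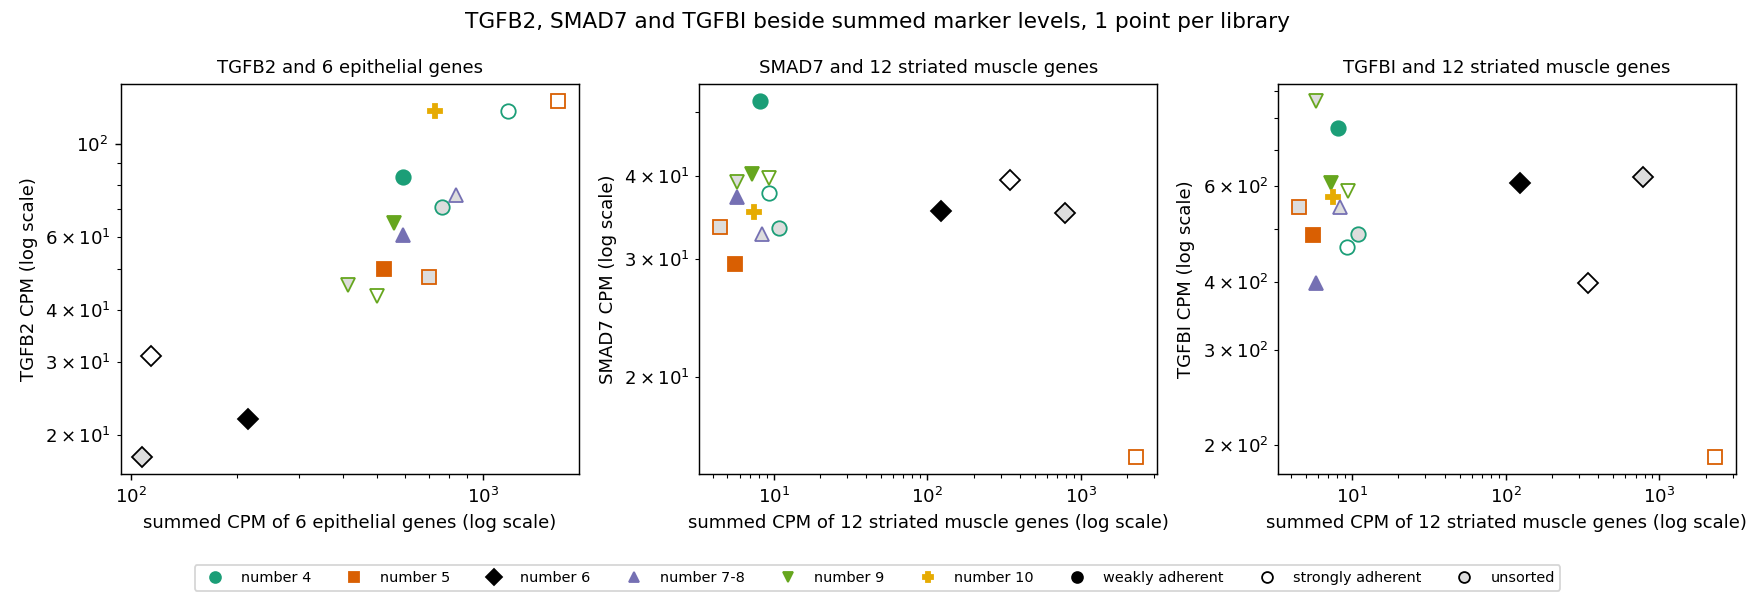
TGFB2 against the summed CPM of 6 epithelial genes (left), and SMAD7 (middle) and TGFBI (right) against the summed CPM of 12 striated muscle genes, with 1 point per library and logarithmic axes. TGFB2 is lowest (17.7 to 31.0 CPM) where the epithelial sum is 107 to 215 CPM. Strongly adherent 5, at 2289 CPM of muscle genes, has the lowest SMAD7 and TGFBI. Unsorted 6, next at 786 CPM of muscle genes, has 35.2 CPM of SMAD7 and 624.8 CPM of TGFBI.

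Genes whose pattern over the 15 libraries was most like that of the 4 most variable members were found by the root mean square difference of centred log2 CPM, among 12276 genes. For TGFB2, whose own SD was 0.85, these were GPRC5A (0.29), PLA2G4A (0.29) and PARP9 (0.30). For INHBA, with an SD of 0.88, they were HLA-G (0.46), PDGFB (0.50) and IL7R (0.56). For TGFBI (SD 0.50) they were BTN2A2 (0.25), PODXL (0.26) and CNPY4 (0.26), and for TGFB3 (SD 0.43) they were ARID2 (0.13), CBX5 (0.16) and KIAA1549 (0.19). HLA-G shares sequence with other HLA genes, so its counts are uncertain.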

How the data were processed

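Bulk mRNA for the 15 tumour libraries was sequenced as 50 bp single-end reads from a stranded TruSeq kit, as the labels' protocols state. The tools were cutadapt, FastQC, STAR, HTSeq and DESeq2, with build hg19, per the submitters' processing notes. Tool versions and the strand setting of the counting are not given in the sources used here. INHBA has an antisense gene, INHBA-AS1, whose reads could then not be told from its own. The organism label is mouse while symbols and build are human, so mouse host reads may be among those counted on conserved genes. The authors deposited whole-number counts per gene. They also deposited log2 values, equal to log2 of the count over a size factor plus 1 to within 5.15e-14. No sequences or coordinates were used here.

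Counts were tested in R 4.3.3 with edgeR 4.0.16 (TMM, filterByExpr by group, robust quasi-likelihood, all 15 libraries). The term was the adhesion group, or group plus title number for comparisons of numbers. Tests were two-sided, with Benjamini-Hochberg adjustment over 15190 genes at 0.05. The SE is the absolute log2 fold change over the square root of F, so intervals are approximate. The 15190 genes hold 99.98% of counts, and the biological coefficient of variation was 33.6%. In simulated counts the comparison of number 6 recovered 53% of 2-fold and 79% of 4-fold changes in 15190 genes, with 2 false calls. The simulated spread came from the fit without title number, where differences between numbers count as spread. These rates may therefore not hold for the real comparison of number 6. No 2 libraries of a group agreed within sampling noise (lowest chi-square per degree of freedom 33.2).

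The 10 genes, the lists and the markers were chosen with earlier results of these data known. All 10 are named. From each list, up to 4 genes past the threshold with the largest fold change at a mean of at least 1 CPM are named, or the 2 most abundant where none passed. LDLRAD4, CTGF, CYR61, COL1A1 and IL11 in number 6 fall outside this rule. LRRC32, INHBE, NODAL, MSTN and CDKN2B did not pass the filter on low counts. A gene that the rule picks is not reported here. Alternatives were DESeq2 size factors, no filter or 1 CPM in 4 libraries, DESeq2 1.42.0, limma-trend (limma 3.58.1) on the deposited log2 values, the title number as a block, fits without the adhesion group, without number 6 or without number 6 and strongly adherent 5, and each library left out.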

Additional observations from a re-analysis of the deposited data

Results flagged for a closer look

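Of 30 sets of libraries examined (10 genes in 3 adhesion groups), 2 held a library far from the rest of its group, and chance flags about 1 in 20. SMAD3 stood at 134 CPM in strongly adherent 6, against 97.4 to 102 CPM in the other strongly adherent libraries, and the gap took 0.878 of the range where 0.829 is the critical value. SMAD7 stood at 15.2 CPM in strongly adherent 5, against 37.8 to 39.7 CPM in the other strongly adherent libraries, and the gap took 0.922 of the range.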

How the results depend on the processing

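Called genes between adhesion groups stayed at 0 under each setting but 1. With the title number as a replicate block, edgeR called 0 in all 3 comparisons, and DESeq2 called 30 for weakly against strongly adherent, 23 for strongly adherent against unsorted and 0 for weakly adherent against unsorted; none of the 10 genes was among them. The rule used for pairing asks that every pair of the same number deviates together with a correlation over 0.1. This held for 11 of 13 pairs (0.0164 to 0.767, beside a median of -0.0264 for libraries of different numbers), and 9 of 14 libraries correlate best with their own number. The numbers thus share deviations in most pairs without meeting the rule, and the labels do not say what they mark. Among the numbers, DESeq2 called 26 genes for number 4, 92 for number 5, 98 for number 7-8, 102 for number 9 and 312 for number 10. Without the adhesion group the counts were 4 for number 4, 1 for number 5 and 0 for number 7-8. With no filter they were 18 for number 7-8 and 9 for number 10, with the filter at 1 CPM 4 for number 7-8, and with limma-trend 0 for number 7-8. Leaving out each library gave 0 to 10 genes for number 4, 0 to 41 for number 5, 1981 to 4231 for number 6, 0 to 90 for number 7-8, 0 to 15 for number 9 and 0 to 228 for number 10, which has no value without its only library. The cause of these shifts was not tested. edgeR and DESeq2 shared 4227 of the 4242 and 5039 genes each called in number 6.

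Over 1970 repeats for single members, 1903 stayed on the same side of the threshold and, where not called, moved by less than 1 SE, 56 moved by more, 8 gained a call and 3 lost it (TGFB3 in number 6). The sign changed under some setting in 18 of 30 adhesion values and 20 of 60 number values, none of which was called. INHBA rests on as few as 70 reads in a library, the adhesion groups have 4 to 6 libraries each, and number 10 rests on 1.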
